A study of Rattus norvegicus with 23 samples.

Results

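The axon guidance ligands and receptors are the secreted and cell surface proteins that steer growing axons and migrating cells: semaphorins with their neuropilin and plexin receptors, ephrins with Eph receptors, Slits with Robo receptors, and netrins with receptors of the Unc5 family. They were found by gene symbol, from the start of each name in the authors' tables, which gave 65 genes among the 32552 gene identifiers listed for differentiating CG4 cells. The 65 are 20 semaphorins, 2 neuropilins, 9 plexins, 8 ephrins, 13 Eph receptors, 3 Slits, 2 Robo receptors, 4 netrins, 3 Unc5 receptors and Unc50, a protein of the Golgi that shares only the letters of the name and leaves 64 guidance genes. Counts over the 65 include Unc50 unless it is said to be left out. The rule reads names and no measured value. Only 14690 identifiers had a name in those tables, which cover differentiating CG4 cells, so family genes without a name there could not be found.

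Gene expression was measured by RNA sequencing in 23 libraries of rat oligodendroglia. CG4 is a cell line that came from primary rat oligodendroglia of the brain. One set of CG4 cells was transduced with Zfp488 (myc-tagged, 4 libraries), with Nkx2.2 (T7-tagged, 4 libraries) or with EGFP alone (control, 4 libraries), each from a vector in which the CAG promoter drives the insert and IRES-EGFP, and all 3 groups were then differentiated for 3 days. Zfp488 and Nkx2.2 are transcription factors of the oligodendrocyte lineage, and the CAG promoter is active in most cell types. Proliferating wild-type CG4 cells without a vector gave 3 libraries. Wild-type primary rat oligodendroglia, shaken off mixed glial cultures, gave 4 libraries after 3 days of differentiation and 4 libraries from proliferating cells. Proliferation medium held bFGF and PDGF-AA, and differentiation medium was SATO medium with T3/T4 and CNTF.

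Semaphorins of class 3 are secreted and bind neuropilins, which pass the signal on through plexins, while membrane-bound semaphorins mostly bind plexins directly. Slits act on Robo receptors, netrins attract or repel through Dcc and the Unc5 receptors, and ephrins signal to Eph receptors on neighbouring cells. In the brain these cues direct the migration of oligodendrocyte progenitors, and myelinating cells in turn carry several of them on their surface, where they limit the growth of axons.

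Total counts lay between 29906831 and 49206479 per library in differentiating CG4 cells, 32454992 and 42318101 in proliferating CG4 cells, and 20063345 and 36301186 in primary cells. The introduced genes were high where the labels place them. Zfp488 stood at 131.0 to 201 CPM (counts as a share of the library total, scaled for library composition) in Zfp488 libraries against 34.0 to 58.8 CPM in control libraries. Nkx2-2 stood at 1289 to 2009 CPM in Nkx2.2 libraries against 211 to 304 CPM in control libraries, and at 91.9 to 176 CPM in Zfp488 libraries. Mbp, the myelin basic protein gene, stood at 48366 to 56496 CPM in differentiating and 231 to 260 CPM in proliferating primary cells. It stood at 4665 to 9057 CPM in control and 304.0 to 627 CPM in proliferating CG4 libraries, where the myelin genes Mog and Mobp averaged under 1 CPM. Differentiating primary libraries fell into 2 close pairs (1 with 2, and 3 with 4), and proliferating CG4 replicate 1 stood apart from replicates 2 and 3 for several guidance genes named further on. In bulk RNA, fewer cells of one type and less RNA per cell cannot be told apart.

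Promoter sequence was looked up for the genes that moved most with Nkx2.2, a homeodomain protein whose family binds sites with the core letters AAGTG. The reference table held a promoter for 51 of the 65 genes. The sequences of 3 of them are shown because 2 fell furthest and 1 rose furthest with Nkx2.2 (values in the next paragraphs). Each is the 250 bases before the start of the gene on the plus strand, from RefSeq on GRCr8, at chr19:73256307-73256556 for Nrp1, chr7:30073387-30073636 for Ntn4 and chr9:71617004-71617253 for Nrp2. Capitals mark AAGTG or its reverse complement CACTT.
Nrp1: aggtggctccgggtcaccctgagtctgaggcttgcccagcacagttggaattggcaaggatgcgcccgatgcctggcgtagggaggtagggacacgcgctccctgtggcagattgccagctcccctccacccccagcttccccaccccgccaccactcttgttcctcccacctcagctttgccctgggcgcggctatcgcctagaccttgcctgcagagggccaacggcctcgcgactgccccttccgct
Ntn4: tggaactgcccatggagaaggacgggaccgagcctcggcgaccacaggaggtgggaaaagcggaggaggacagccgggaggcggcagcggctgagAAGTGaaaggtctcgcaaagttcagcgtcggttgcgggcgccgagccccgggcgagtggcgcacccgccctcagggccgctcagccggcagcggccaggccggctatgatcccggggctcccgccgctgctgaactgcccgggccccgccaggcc
Nrp2: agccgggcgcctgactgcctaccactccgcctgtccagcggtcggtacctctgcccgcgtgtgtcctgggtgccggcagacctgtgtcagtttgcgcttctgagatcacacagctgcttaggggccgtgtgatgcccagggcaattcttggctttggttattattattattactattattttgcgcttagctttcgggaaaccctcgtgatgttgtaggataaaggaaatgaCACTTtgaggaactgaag
The Nrp1 window held neither form, the Ntn4 window held AAGTG starting 155 bases before the start, and the Nrp2 window held CACTT starting 18 bases before it. Among the genes that passed the test with Nkx2.2, 3 of 7 promoters of genes that rose and 2 of 5 of genes that fell held the letters, against 13 of 39 promoters of the other guidance genes (Unc50 left out, and Robo1 with 2 promoters). Over all promoters of the table the letters were present in 13600 of 33469, which is 40.6%. These are matches of letters in a window, not measured binding sites.

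In differentiating CG4 cells, Nkx2.2 was accompanied by opposite changes of the 2 neuropilins, with Nrp1 lower and Nrp2 higher, and by lower Ntn1 and Ntn4, lower Plxnd1 and lower Slit2. With Zfp488, Slit2 and Slit3, the receptors Epha3, Epha4 and Unc5b, and Sema4f rose, and Plxna3 fell. All 65 genes passed the filter on low counts in these libraries. Their names came from the authors' tables for these same libraries, so passing it is not read as a result. With Nkx2.2, 11 rose and 7 fell relative to control (edgeR quasi-likelihood test, adjusted p under 0.05 over all genes), which is 27.7% of the 65, against 10.5% of the 14811 genes tested (6.09% higher and 4.44% lower). With Zfp488, 6 rose and 1 fell, which is 10.8%, near the 9.05% called among all genes tested (5.89% higher and 3.16% lower). Compared directly, 14 genes were higher and 10 lower in Zfp488 than in Nkx2.2 libraries, which is 36.9%, against 25.2% of all genes tested (13.2% higher and 12% lower). The median log2 fold change of the 65 was 0.11 for either factor against control, against -0.01 over all genes with Nkx2.2 and -0.02 with Zfp488. Both factor comparisons use the same 4 control libraries. Values in brackets after a comparison are log2 fold changes ± SE with the edgeR adjusted p. This SE is derived from the test, as the absolute log2 fold change divided by the square root of the F statistic. A mean ± a second value is mean ± SD over the 4 libraries of a group (3 for proliferating CG4).

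Libraries with the same replicate number deviated together in these 3 groups, and with the replicate number as a block more guidance genes passed. With the block, 23 of the 65 passed with Zfp488 (14 higher and 9 lower), which is 35.4%, against 24.1% of all genes tested. With Nkx2.2, 30 passed (14 higher and 16 lower), which is 46.2% against 26.1% of all genes, and between the factors 37 passed (19 higher and 18 lower), which is 56.9% against 42.3%. The genes gained were Efna3, Efnb1, Efnb2, Plxna1, Plxna3, Plxnb2, Sema3a, Sema3c, Sema5a, Sema5b, Sema6b and Slit3 with Nkx2.2. With Zfp488 they were Efna2, Ephb2, Ephb6, Nrp2, Ntn3, Ntn4, Plxnb1, Sema3a, Sema3b, Sema3c, Sema4a, Sema5a, Sema6a, Sema6b, Sema7a and Unc5a. Between the factors they were Efna2, Efna3, Efna5, Efnb3, Ephb3, Ephb6, Nrp2, Plxna3, Robo2, Sema3b, Sema4a, Sema6a and Slit1. Of these, 6 of 12 with Nkx2.2 (Efna3, Plxna1, Plxna3, Plxnb2, Sema3a and Sema6b), 3 of 16 with Zfp488 (Ntn3, Ntn4 and Plxnb1) and 4 of 13 between the factors (Efna3, Efnb3, Nrp2 and Plxna3) also passed in at least 1 other alternative fit. Every gene called without the block (7 with Zfp488, 18 with Nkx2.2 and 24 between the factors) also passed with it. Without the block, leaving out 1 library at a time left 3 to 8 genes called with Zfp488, 11 to 23 with Nkx2.2 and 19 to 24 between the factors. The lowest counts came without Nkx2.2 replicate 4 (11 genes), and without control replicate 3, Zfp488 replicate 2 or Zfp488 replicate 4 (3 genes each, with 4 genes without control replicate 4). In every such fit 10 of the 18 genes called with Nkx2.2 kept their call (Nrp1, Ntn1, Ntn4, Plxnd1, Plxna4, Epha5, Sema3d, Sema4b, Sema4f and Unc5a), and 3 of the 7 called with Zfp488 did so (Slit3, Sema4f and Plxna3).

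**Figure D1:**
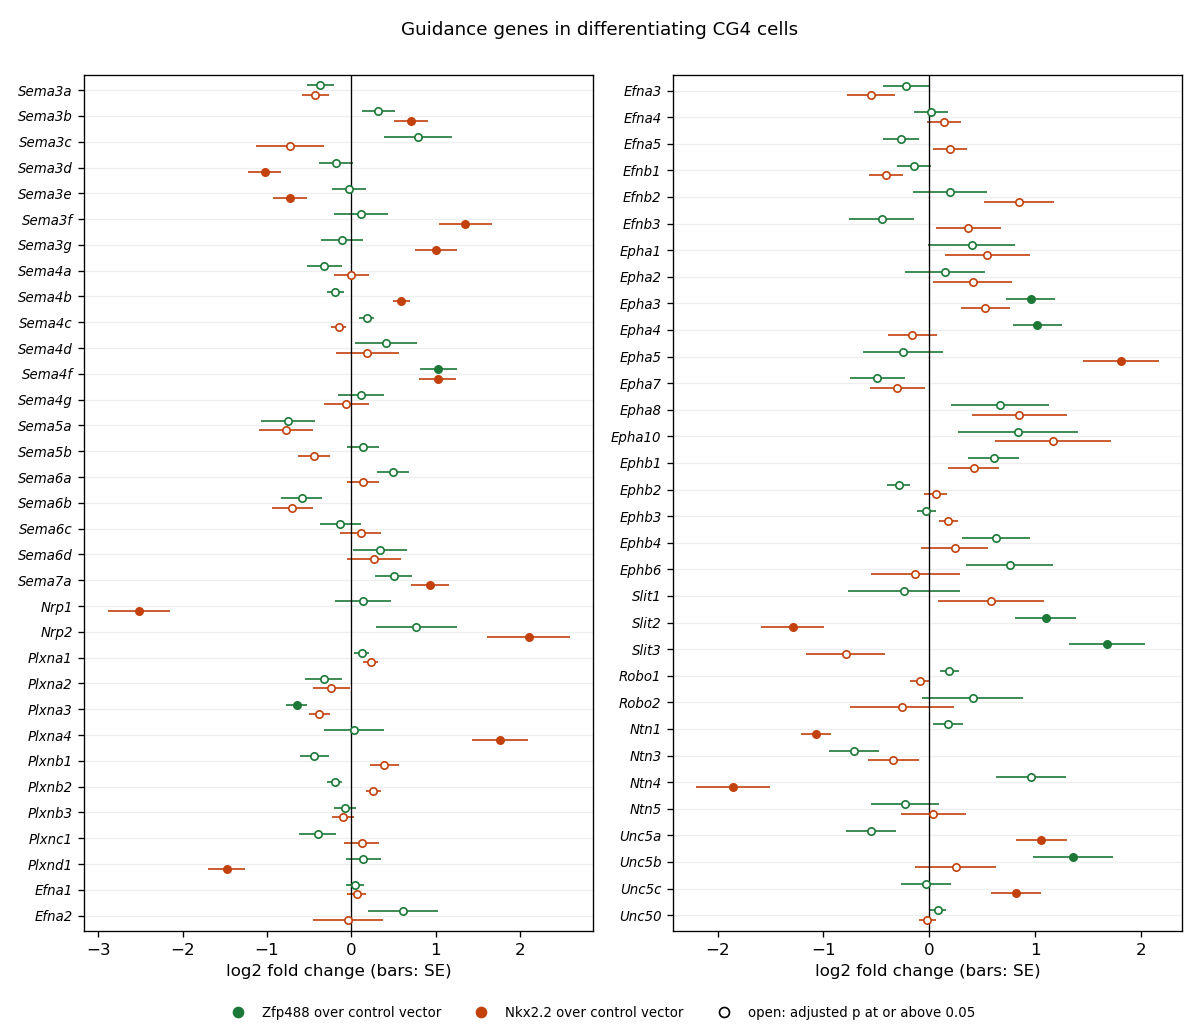
Log2 fold changes (x axis, bars show the SE) of all 65 genes in differentiating CG4 cells, Zfp488 over control and Nkx2.2 over control, with open symbols for an adjusted p at or above 0.05. Filled symbols mark 7 genes for Zfp488 and 18 for Nkx2.2, from Nrp1 at -2.52 to Nrp2 at 2.10, both with Nkx2.2.

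The plot of all log2 fold changes shows Nrp1 and Nrp2 at its ends for Nkx2.2. Secreted semaphorins moved in both directions with Nkx2.2. Sema3f, a ligand of Nrp2, had 1.81, 2.53, 2.97 and 2.48 CPM in Nkx2.2 libraries, against 0.610, 0.657, 1.52 and 1.03 CPM in control libraries. All 4 Nkx2.2 libraries lay above all control libraries (log2 fold change 1.35 ± 0.31, adjusted p = 0.0153), and the call was lost without control replicate 2 (adjusted p = 0.0501). Sema3g, another ligand of Nrp2, had 5.15, 4.57, 4.70 and 4.85 CPM with Nkx2.2 and 1.56, 2.14, 2.55 and 3.39 CPM in control, with no overlap (1.00 ± 0.25, adjusted p = 0.0224). Its call ended without control replicate 1 or 2 or Nkx2.2 replicate 4, up to an adjusted p of 0.069. Sema3d had 290.4, 195, 139.7 and 154 CPM with Nkx2.2, against 431, 458, 414 and 299 CPM in control libraries. The groups did not overlap and Sema3d was lower with Nkx2.2 (-1.03 ± 0.20, adjusted p = 0.00642). Sema3e, which binds Plxnd1 without a neuropilin, had 50.5, 46.9, 27.1 and 44.5 CPM with Nkx2.2 and 91.6, 75.9, 52.4 and 61.1 CPM in control, again without overlap (-0.73 ± 0.20, adjusted p = 0.0376). The Sema3e call was lost without control replicate 1 or 2, or without Nkx2.2 replicate 2 or 4, with an adjusted p of up to 0.0995. Sema3b averaged 8.74 ± 1.74 CPM with Nkx2.2 and 5.34 ± 1.08 CPM in control (SD, n = 4 each), with overlapping groups (0.71 ± 0.20, adjusted p = 0.0383). It kept its call in only 2 of the 8 fits that each left out 1 library.

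With Zfp488 none of these 5 ligands passed against control with all libraries and no block. Between the factors, Sema3f and Sema3g were lower in Zfp488 than in Nkx2.2 libraries (-1.25 ± 0.31, adjusted p = 0.0126, and -1.11 ± 0.25, adjusted p = 0.00725), and Sema3d and Sema3e were higher (0.85 ± 0.20, adjusted p = 0.00932, and 0.70 ± 0.20, adjusted p = 0.0249). Sema3f had 0.580, 1.14, 1.21 and 1.14 CPM in Zfp488 libraries, where replicate 1 stood below the other 3, and its log2 fold change over control was 0.11 ± 0.32 (adjusted p = 0.878). Sema3c, a further ligand of the neuropilins, had 277, 320.3, 142 and 277 CPM with Zfp488, 88.1, 119.9, 44.6 and 101 CPM with Nkx2.2 and 218, 201, 55.6 and 116 CPM in control libraries. Its Zfp488 libraries lay above every Nkx2.2 library (Zfp488 over Nkx2.2 1.53 ± 0.41, adjusted p = 0.0172), while control libraries overlapped both (Zfp488 over control 0.79 ± 0.40, adjusted p = 0.248, and 0.00428 with the replicate block). Sema3a, which binds Nrp1, averaged 12.6 ± 1.75 CPM with Zfp488, 12.2 ± 2.81 CPM with Nkx2.2 and 16.5 ± 2.32 CPM in control. Neither difference of Sema3a passed with all libraries and no block (adjusted p = 0.174 for Zfp488 and 0.119 for Nkx2.2), and both passed with it (0.0153 and 0.00585).

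Among the membrane semaphorins, Sema4f was called with either factor. It had 1.49, 1.40, 1.11 and 1.32 CPM with Zfp488, 1.55, 1.06, 1.47 and 1.22 CPM with Nkx2.2 and 0.677, 0.520, 0.883 and 0.536 CPM in control libraries. Every library of either factor exceeded every control library, with log2 fold changes of 1.03 ± 0.22, adjusted p = 0.0149 for Zfp488 and 1.02 ± 0.22, adjusted p = 0.0103 for Nkx2.2. Sema4b rose with Nkx2.2, at 26.8 ± 3.25 CPM against 17.9 ± 0.762 CPM in control (0.59 ± 0.10, adjusted p = 0.0025). Sema7a, which is anchored by a lipid and binds Plxnc1 and integrins, had 152, 130.0, 66.2 and 127 CPM with Nkx2.2 and 65.3, 70.0, 48.3 and 66.6 CPM in control. The Sema7a groups overlapped (0.93 ± 0.23, adjusted p = 0.0204), and leaving out control replicate 3 or Nkx2.2 replicate 1, 2 or 4 raised its adjusted p to as much as 0.0621. The other semaphorins of the CG4 libraries, 12 of 20 with Nkx2.2 and 19 of 20 with Zfp488, did not pass.

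The neuropilins gave the widest split with Nkx2.2. Nrp1 (ENSRNOG00000010744), the co-receptor of Sema3a, had 1.30, 0.884, 1.30 and 1.55 CPM in Nkx2.2 libraries, against 4.16, 4.87, 12.2 and 7.61 CPM in control libraries. Every Nkx2.2 library lay below the lowest control library, and the log2 fold change was -2.52 ± 0.37, adjusted p = 0.00105. Nrp2 (ENSRNOG00000031232), the co-receptor of Sema3f, had 45.5, 32.7, 15 and 42.4 CPM with Nkx2.2 and 12.7, 11.3, 2.92 and 4.96 CPM in control libraries. The groups did not overlap (2.10 ± 0.49, adjusted p = 0.0169), although replicate 3 was lowest in both. The Nrp2 call was lost without control replicate 4 or Nkx2.2 replicate 4 (adjusted p up to 0.0507) and also without the filter on low counts. In Zfp488 libraries Nrp1 had 7.33, 4.88, 8.21 and 11.2 CPM, within the range of control (log2 fold change 0.14 ± 0.33, adjusted p = 0.84), and was higher than with Nkx2.2 in every library (2.66 ± 0.37, adjusted p = 0.000399). Nrp2 had 18.4, 16.4, 5.77 and 13.6 CPM with Zfp488, which overlapped control (0.77 ± 0.48, adjusted p = 0.349, and 0.0143 with the replicate block). Between the factors Nrp2 was at -1.32 ± 0.48, adjusted p = 0.0606, which did not pass, and it was lower in Zfp488 libraries with the block (adjusted p = 0.000451) and also passed with DESeq2.

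The plexins, which carry the intracellular signal, included 2 genes called with Nkx2.2. Plxnd1, the receptor of Sema3e, had 26.6, 41.0, 61.5 and 38.9 CPM with Nkx2.2, against 111, 121, 124 and 115 CPM in control libraries. Every Nkx2.2 library lay below every control library (-1.48 ± 0.22, adjusted p = 0.00115). Plxna4, a partner of the neuropilins in Sema3a signalling, was low, with 1.55, 0.909, 0.886 and 1.72 CPM with Nkx2.2 and 0.542, 0.438, 0.270 and 0.246 CPM in control, and rose without overlap (1.76 ± 0.33, adjusted p = 0.00466). With Zfp488, Plxnd1 had 97.5, 112, 149 and 156 CPM and its difference from control did not pass (0.14 ± 0.21, adjusted p = 0.738). Plxna3, another partner of the neuropilins, fell with Zfp488, to 243, 231, 299.9 and 232 CPM against 341, 370.4, 484 and 388 CPM in control, with no overlap (-0.65 ± 0.12, adjusted p = 0.00812). In Nkx2.2 libraries Plxna3 had 302, 309, 321 and 285 CPM, which also lay below all control libraries, but did not pass (-0.38 ± 0.12, adjusted p = 0.0636); it passed with the replicate block (0.00538), with DESeq2 and without control replicate 1. Plxnb1 and Plxnb2, receptors of class 4 semaphorins, differed between the factors. Plxnb1 averaged 152 ± 19.5 CPM with Zfp488 and 272 ± 73.0 CPM with Nkx2.2 (-0.84 ± 0.17, adjusted p = 0.00422). The Plxnb1 groups overlapped, with 170.7 CPM in Zfp488 replicate 1 and 168.3 CPM in Nkx2.2 replicate 3. Plxnb2 averaged 264 ± 16.0 CPM with Zfp488 and 364 ± 43.1 CPM with Nkx2.2 (-0.46 ± 0.09, adjusted p = 0.00284).

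**Figure D2:**
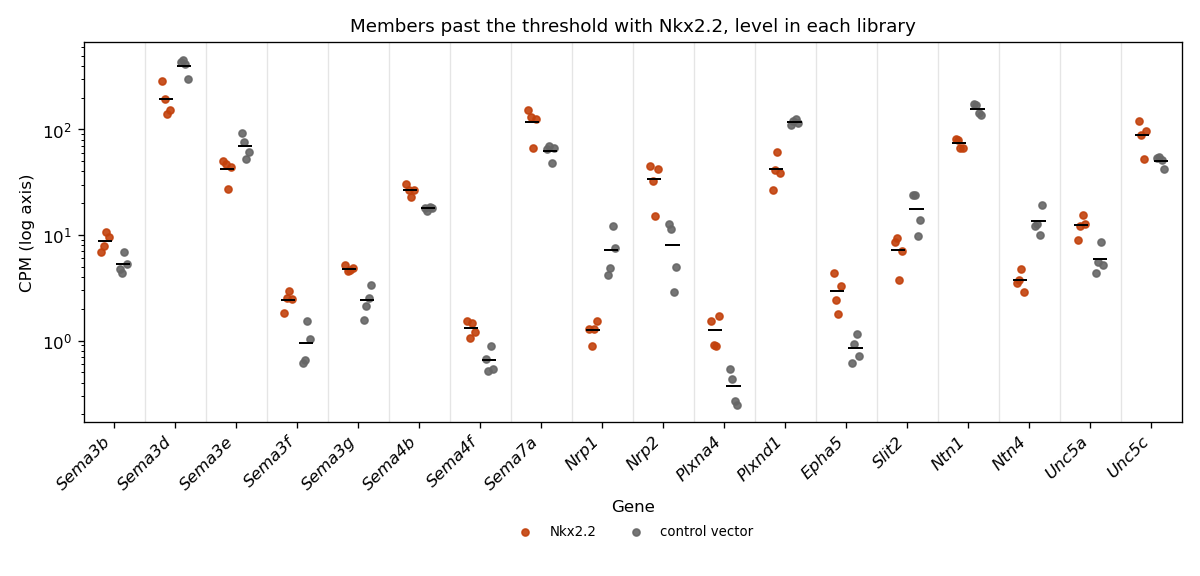
CPM in each library (log axis) of the guidance genes called with Nkx2.2, with points for Nkx2.2 and control libraries and a line at each mean. Nrp1 lies at 0.884 to 1.55 CPM in Nkx2.2 and 4.16 to 12.2 CPM in control libraries, and Nrp2 at 15 to 45.5 CPM in Nkx2.2 and 2.92 to 12.7 CPM in control libraries.

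Slit2 moved in opposite directions with the factors. Slit2 (ENSRNOG00000003840) had 41.4, 42.8, 31.2 and 36.6 CPM with Zfp488, 8.61, 9.40, 3.78 and 7.13 CPM with Nkx2.2 and 23.8, 23.7, 9.86 and 14.0 CPM in control libraries. The 3 groups did not overlap, with Zfp488 on top and Nkx2.2 at the bottom. The log2 fold change was 1.10 ± 0.29, adjusted p = 0.0377 for Zfp488 over control, -1.29 ± 0.30, adjusted p = 0.0169 for Nkx2.2 over control and 2.39 ± 0.31, adjusted p = 0.000257 for Zfp488 over Nkx2.2. Against control both calls were fragile in the fits with no block. Without 1 of 5 libraries (control replicate 3 or 4, or Zfp488 replicate 1, 2 or 4) the Zfp488 call was lost, up to an adjusted p of 0.0993. Without control replicate 2 or Nkx2.2 replicate 4 the Nkx2.2 call was lost, up to 0.0529. The Zfp488 call also ended without the filter on low counts, and the Nkx2.2 call with only the 8 libraries compared. Both passed with the replicate block (adjusted p = 0.000421 for Zfp488 and 0.000179 for Nkx2.2). Slit3 had 13.2, 9.35, 5.52 and 7.46 CPM with Zfp488, 2.24, 1.69, 1.09 and 1.35 CPM with Nkx2.2 and 3.73, 3.70, 2.67 and 1.12 CPM in control. All Zfp488 libraries exceeded all others (1.68 ± 0.36, adjusted p = 0.0163 over control and 2.47 ± 0.38, adjusted p = 0.000791 over Nkx2.2), and the Nkx2.2 difference from control did not pass (-0.79 ± 0.37, adjusted p = 0.209, and 0.0369 with the replicate block). Slit1 had a log2 fold change of -0.24 ± 0.53 with Zfp488 and 0.58 ± 0.50 with Nkx2.2, neither past the threshold. The receptors Robo1 and Robo2 were called with neither factor. Robo1 averaged 48.3 ± 3.36 CPM with Zfp488, 40.1 ± 4.62 CPM with Nkx2.2 and 42.7 ± 1.75 CPM in control, and passed only in the direct comparison, with overlapping groups (0.28 ± 0.09, adjusted p = 0.0382).

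The netrins Ntn1 and Ntn4 fell and the netrin receptors Unc5a and Unc5c rose with Nkx2.2. Ntn1 (ENSRNOG00000003947), the secreted ligand of Dcc and the Unc5 receptors, had 82.1, 80.3, 66.6 and 66.3 CPM with Nkx2.2 and 173, 169, 144 and 138 CPM in control libraries. Ntn1 was lower in every Nkx2.2 library (-1.07 ± 0.14, adjusted p = 0.000458). Ntn4, a netrin of basement membranes, had 24.2, 25.8, 11.2 and 43.2 CPM with Zfp488, 3.49, 3.79, 4.81 and 2.91 CPM with Nkx2.2 and 12.1, 12.8, 9.96 and 19.1 CPM in control libraries. Nkx2.2 libraries lay below all control libraries (-1.85 ± 0.35, adjusted p = 0.00498), and Zfp488 libraries lay above all Nkx2.2 libraries (2.81 ± 0.36, adjusted p = 0.000229), which was the highest fold change among the 65 genes in that comparison. Against control, Ntn4 did not pass with Zfp488 (0.96 ± 0.33, adjusted p = 0.0913); it passed with the replicate block (0.0445), with DESeq2 and without Zfp488 replicate 3. Unc5a had 9.02, 12.3, 15.4 and 12.7 CPM with Nkx2.2 and 4.36, 5.56, 8.68 and 5.16 CPM in control, without overlap (1.06 ± 0.24, adjusted p = 0.0146). Unc5c averaged 89.3 ± 28.3 CPM with Nkx2.2 and 50.6 ± 5.57 CPM in control (0.82 ± 0.24, adjusted p = 0.0455), with overlap, and kept its call in only 1 of the 8 fits that each left out 1 library. Unc5b rose with Zfp488, with 44.9, 82.5, 129 and 129 CPM against 32.1, 37.4, 47.7 and 34.2 CPM in control libraries. Zfp488 replicate 1 fell within the control range (1.36 ± 0.38, adjusted p = 0.0448), and 7 of the 8 fits with 1 library left out lost the call.

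Eph receptors rose in a few cases and no ephrin was called in the fit of all libraries with no block. Epha4, which binds ephrins of both classes, had 36.2, 31.2, 19.1 and 26.0 CPM with Zfp488, 16.8, 11.8, 9.89 and 11.4 CPM with Nkx2.2 and 19.4, 14.6, 10.6 and 11.4 CPM in control libraries. Zfp488 replicate 3 fell just within the control range, and Epha4 rose with Zfp488 (1.02 ± 0.23, adjusted p = 0.0206) and exceeded Nkx2.2 in every library (1.18 ± 0.24, adjusted p = 0.00375). Epha3, a receptor of A-class ephrins, had 5.11, 4.86, 3.68 and 3.78 CPM with Zfp488 and 2.06, 2.14, 2.06 and 2.75 CPM in control, without overlap (0.96 ± 0.23, adjusted p = 0.0256). The Epha3 call was lost without control replicate 1, 2 or 3 or Zfp488 replicate 2 or 4 (adjusted p up to 0.0748), and that of Epha4 without control replicate 3 or 4 or Zfp488 replicate 2 or 4 (up to 0.0614). Epha5, of the same class, was the only Eph receptor called with Nkx2.2 when all libraries were fitted, with 4.41, 2.42, 1.77 and 3.30 CPM against 0.610, 0.931, 1.15 and 0.714 CPM in control (1.81 ± 0.36, adjusted p = 0.00649). All Nkx2.2 libraries exceeded all control libraries. Epha10, Ephb1 and Epha3 each passed with Nkx2.2 in 1 fit that left out a library (control replicate 3, Nkx2.2 replicate 1 and Nkx2.2 replicate 3, in that order). The 8 ephrins had log2 fold changes of -0.45 to 0.61 with Zfp488 and -0.55 to 0.85 with Nkx2.2, and none passed in that fit, with 0 and 3 of them at an unadjusted p under 0.05. Efna3 passed with Nkx2.2 when Nkx2.2 replicate 3 was left out.

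**Figure D3:**
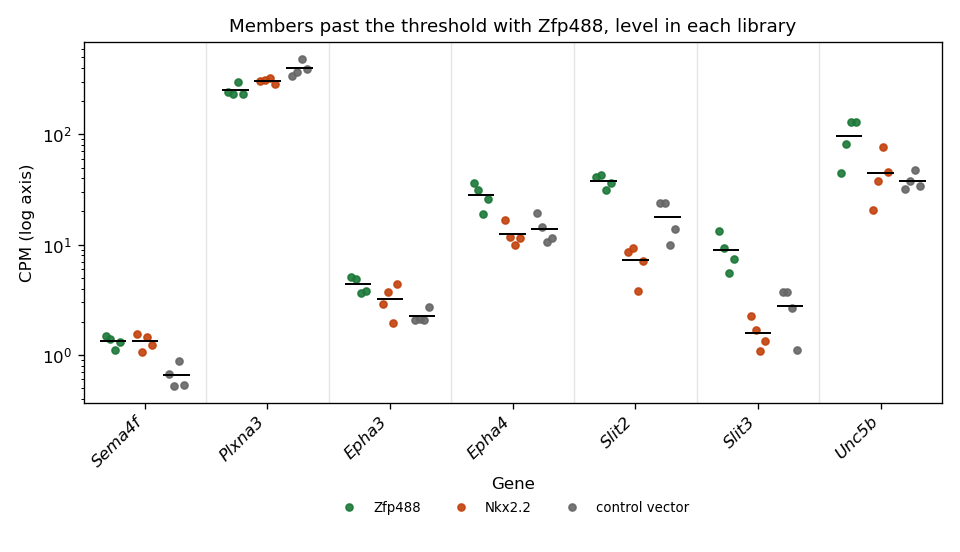
CPM in each library (log axis) of the 7 guidance genes called with Zfp488, with points for Zfp488, Nkx2.2 and control libraries and a line at each mean. Slit2 and Slit3 are highest in Zfp488 libraries (31.2 to 42.8 CPM and 5.52 to 13.2 CPM), and Plxna3 is lowest there.

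Some cell type markers moved with these groups. The 5 Schwann cell markers summed to 170 to 239 CPM in Zfp488 libraries, 252 to 976 CPM in Nkx2.2 libraries and 131 to 149 CPM in control libraries, and 2 of 5 rose with each factor. Of the 8 oligodendrocyte markers 2 rose with Zfp488, none passed with Nkx2.2, and 4 were higher and none lower in Zfp488 than in Nkx2.2 libraries. They summed to 19537 to 35050 CPM with Zfp488, 7773 to 19307 CPM with Nkx2.2 and 12184 to 19596 CPM in control. Among them Mbp stood at 8944 to 15613 CPM with Zfp488, against 4665 to 9057 CPM in control, so the ranges overlapped slightly. The 3 fibroblast and vessel markers with values summed to 22.4 to 41.5 CPM with Zfp488, 13.6 to 22.4 CPM with Nkx2.2 and 15.1 to 25.8 CPM in control. Of them Col3a1 rose with Zfp488 (7.48 ± 6.75 CPM, against 0.160 ± 0.0779 CPM in control), and Kdr averaged 9.23 ± 1.83 CPM with Zfp488, 6.88 ± 1.93 CPM with Nkx2.2 and 12.3 ± 2.70 CPM in control and fell with Nkx2.2. The 7 neuron markers with values summed to 566 to 795 CPM with Zfp488, 433 to 517 CPM with Nkx2.2 and 409 to 769.6 CPM in control. With Zfp488, 1 of these 7 rose (Tubb3, at 371 ± 82.5 CPM against 115 ± 66.3 CPM in control) and 1 fell, and with Nkx2.2 none passed. Of the 4 astrocyte markers 1 fell with Zfp488. Of the 2 microglia markers Csf1r rose with Zfp488, at under 1 CPM in both groups (0.573 ± 0.186 CPM, against 0.250 ± 0.0728 CPM in control). Cd68 averaged 4.23 ± 1.42 CPM with Zfp488 and 5.50 ± 2.05 CPM in control. It made up most of the microglia sums, which were 3.93 to 6.75 CPM with Zfp488 and 3.83 to 8.70 CPM in control. The part of these cell types in the guidance results was not tested.

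Differentiation of primary oligodendroglia changed most of the guidance genes. Of the 61 genes tested, 24 rose (23 without Unc50) and 28 fell, which is 85.2% and close to the 84.7% called among all 12310 genes tested (41.5% higher and 43.2% lower). Efnb2 was not listed in these files, and Efna5, Epha8 and Ntn5 were too low to test. The semaphorins split into 11 that rose and 8 that fell, while among the plexins 1 rose and 7 fell. The ephrins gave 2 higher and 4 lower of 6, the Eph receptors 6 higher and 3 lower of 12.

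The membrane semaphorins known from oligodendrocytes were among the largest rises. Sema4d, which inhibits axon growth and is made by myelinating cells, had 672, 628, 483 and 472 CPM in differentiating and 25.6, 24.0, 24.9 and 25.3 CPM in proliferating primary libraries (4.53 ± 0.12, adjusted p = 1.28e-10). Sema6a, a transmembrane ligand of plexins A2 and A4, had 1507, 1422, 1104 and 1054 CPM in differentiating and 108, 105, 111 and 120.3 CPM in proliferating libraries (3.55 ± 0.12, adjusted p = 6.26e-10). Sema5a, another inhibitor of axon growth, averaged 437 ± 106 CPM in differentiating and 57.1 ± 3.93 CPM in proliferating libraries (2.97 ± 0.17, adjusted p = 1.76e-07). None of these groups overlapped, and differentiating libraries 1 and 2 stood above 3 and 4 for Sema4d and Sema6a. Among the secreted ligands Sema3d rose, with 372, 431, 402 and 402 CPM in differentiating and 37.3, 41.5, 42.1 and 46.7 CPM in proliferating libraries (3.30 ± 0.07, adjusted p = 3.94e-12). Sema3a fell, with 13.9, 16.8, 13.0 and 13.2 CPM in differentiating and 185, 195, 183 and 199 CPM in proliferating libraries (-3.70 ± 0.07, adjusted p = 2e-12). Sema3f and Sema3g fell as well (-3.23 ± 0.22 and -3.22 ± 0.22), as did the membrane semaphorin Sema4a (-2.54 ± 0.06), without overlap between the groups.

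Of the neuropilins, Nrp2 fell and Nrp1 did not pass. Nrp2 had 7.78, 7.05, 8.90 and 10.2 CPM in differentiating and 81.8, 79.9, 77.7 and 84.0 CPM in proliferating primary libraries (-3.23 ± 0.09, adjusted p = 3.19e-11). Nrp1 averaged 29.7 ± 3.04 CPM in differentiating and 30.1 ± 1.16 CPM in proliferating libraries, a log2 fold change of 0.01 ± 0.07 (adjusted p = 0.86). Plxna2, which with Plxna4 binds Sema6a, had 28.2, 29.5, 24.0 and 22.9 CPM in differentiating and 304, 297, 289 and 324 CPM in proliferating libraries (-3.49 ± 0.08, adjusted p = 3.89e-12). Plxna4 fell to 4.15 ± 0.806 CPM in differentiating libraries, against 21.1 ± 2.71 CPM in proliferating libraries (-2.33 ± 0.14, adjusted p = 1.89e-08). Plxnb3, a receptor of Sema5a that oligodendrocytes express, was the only plexin that rose, with 1522, 1486, 1574 and 1464 CPM in differentiating and 139.6, 122, 119.9 and 132 CPM in proliferating libraries (3.59 ± 0.06, adjusted p = 4.25e-13). Sema6a and its receptors Plxna2 and Plxna4 thus changed in opposite directions.

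The remaining receptor families of primary cells held several large changes. Ephb1, a receptor of B-class ephrins, had 428, 408, 404 and 393 CPM in differentiating and 41.9, 40.1, 42.7 and 42.5 CPM in proliferating libraries (3.33 ± 0.04, adjusted p = 1.18e-13). Epha2 fell to 1.10, 0.843, 0.625 and 0.408 CPM in differentiating libraries, against 14.8, 13.5, 16.9 and 14.7 CPM in proliferating libraries (-4.22 ± 0.18, adjusted p = 8.66e-10). Unc5c had 129.9, 144, 145 and 137 CPM in differentiating and 14.8, 17.0, 15 and 17.2 CPM in proliferating libraries (3.15 ± 0.06, adjusted p = 2.35e-12). Unc5b rose as well (2.28 ± 0.04, adjusted p = 1.6e-12), while the ligand Ntn1 averaged 102 ± 19.1 CPM in differentiating and 146 ± 2.27 CPM in proliferating libraries and fell (-0.48 ± 0.12, adjusted p = 0.00366). Slit2 rose (1.97 ± 0.10, adjusted p = 3.77e-09), Slit1 fell (-1.51 ± 0.25), and the receptors Robo1 and Robo2 fell (-0.94 ± 0.10 and -0.58 ± 0.08). Apart from Sema4g and Sema6b, the genes that passed did not overlap between the groups. The share of all genes without overlap was not counted, so this is not read as particular to guidance genes.

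Within the ephrin system of primary cells, A-class ligands went both ways. Efna1 averaged 19.4 ± 0.776 CPM in differentiating and 3.12 ± 0.134 CPM in proliferating libraries and rose (2.67 ± 0.07, adjusted p = 2.18e-11), and Efna2 rose as well (1.30 ± 0.12, adjusted p = 9.33e-07). Efna3 and Efna4 fell (-1.02 ± 0.18, adjusted p = 0.000283, and -1.98 ± 0.21, adjusted p = 3.85e-06), as did the B-class ligands Efnb1 (-0.77 ± 0.09) and Efnb3, an inhibitor of axon growth in myelin (-0.95 ± 0.23). Of the receptors, Ephb6, which lacks kinase activity, averaged 45.4 ± 7.52 CPM in differentiating and 8.21 ± 0.449 CPM in proliferating libraries and rose (adjusted p = 5.41e-09), while Ephb2 and Ephb3 fell (-1.13 ± 0.08 and -1.92 ± 0.09). Epha3, Epha5, Epha7 and Epha10 rose by log2 fold changes of 1.31 ± 0.15, 1.04 ± 0.15, 1.84 ± 0.26 and 2.78 ± 0.43. Epha4 averaged 7.22 ± 1.61 CPM in differentiating and 6.74 ± 0.734 CPM in proliferating libraries, and its difference did not pass (0.14 ± 0.14, adjusted p = 0.381). Unc50, the Golgi protein, rose in primary cells (0.66 ± 0.05, adjusted p = 3.65e-07) and in CG4 cells (0.62 ± 0.12, adjusted p = 0.0022), and was called with neither factor.

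Beside these changes, the 2 microglia markers with values (Csf1r and Cd68) summed to 17.8 to 24.0 CPM in differentiating and 437 to 457 CPM in proliferating primary libraries. The 3 fibroblast and vessel markers with values summed to 9.43 to 15.3 CPM in differentiating and 57.7 to 79.4 CPM in proliferating libraries, where Col1a1 and Col3a1 fell and Kdr rose (4.33 ± 0.402 CPM in differentiating and 0.947 ± 0.0970 CPM in proliferating libraries). The 4 astrocyte markers, which all rose, summed to 996 to 2022 CPM in differentiating and 71.2 to 76.1 CPM in proliferating libraries. Of the 7 neuron markers 5 fell and 1 rose, with sums of 429 to 537 CPM in differentiating and 793 to 825 CPM in proliferating libraries. Of the 5 Schwann cell markers 4 rose and 1 fell, with sums of 80.0 to 112 CPM in differentiating and 34.1 to 38.2 CPM in proliferating libraries. Their part in the guidance genes that fell or rose was not tested. With the close pairs of differentiating libraries each summed to 1 sample, 53 guidance genes passed, losing Plxnd1 and gaining Epha8 and Sema4f.

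**Figure D4:**
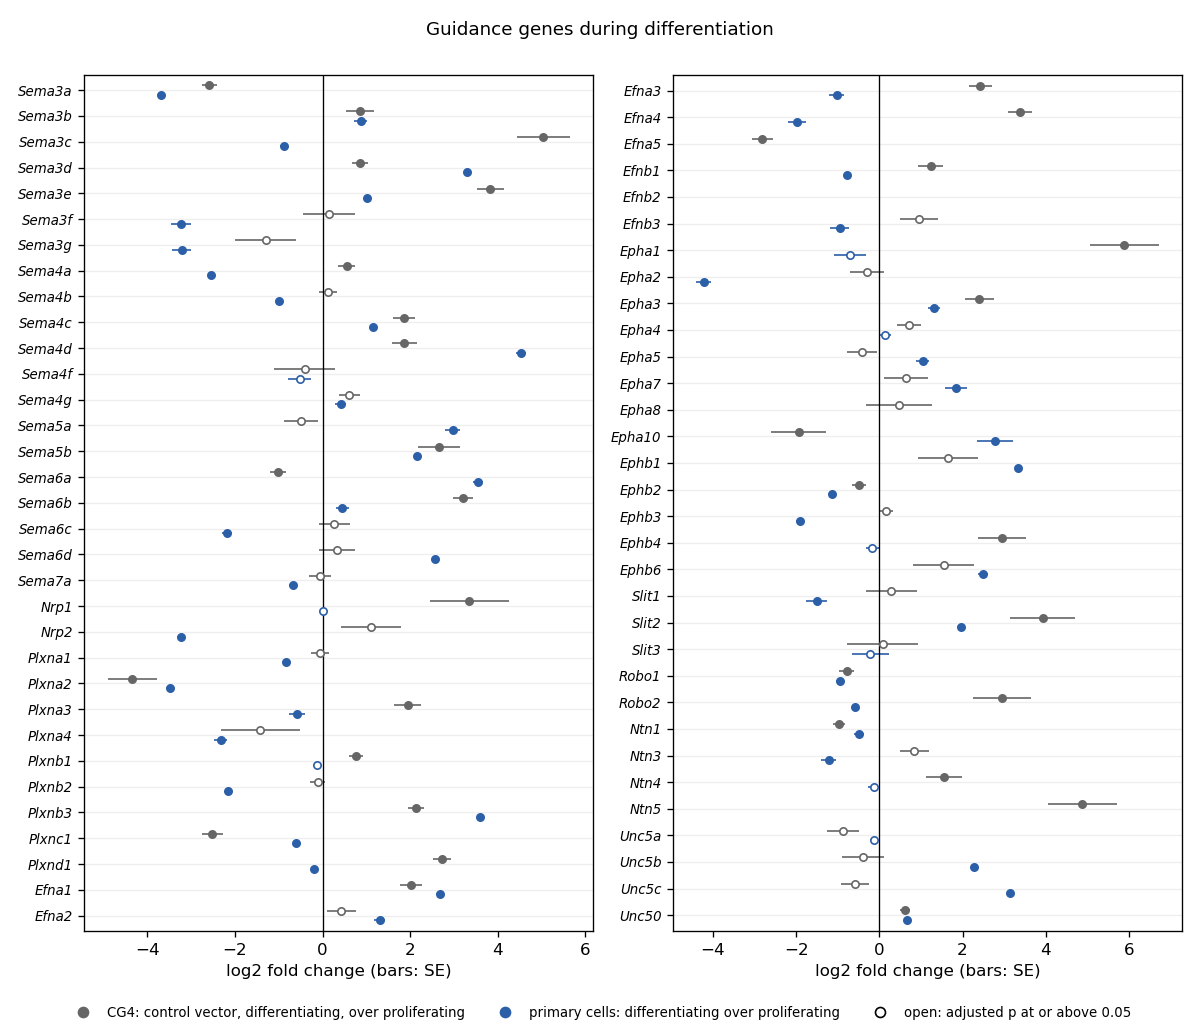
Log2 fold changes of differentiating over proliferating cells (x axis, bars show the SE) of the guidance genes in CG4 cells and in primary cells, with open symbols for an adjusted p at or above 0.05 and no symbol where a gene was not tested. Values of genes with at least 1 CPM in either group run from -4.35 (Plxna2) to 5.04 (Sema3c) in CG4 and from -4.22 (Epha2) to 4.53 (Sema4d) in primary cells, and Epha1 and Ntn5 are below 1 CPM in both CG4 groups.

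In CG4 cells differentiation went with more rises than falls among the guidance genes. Of the 63 guidance genes tested (Unc50 left out), 25 were higher and 9 lower in differentiating control than in proliferating CG4 libraries, which is 54%, against 65.7% of all 12486 genes tested (32.5% higher and 33.2% lower). Control cells carried the vector and were read at 150 bases, proliferating cells carried none and were read at 100 bases, so condition, vector and read length cannot be told apart. Without proliferating replicate 1, 27 were higher and 12 lower, against 26 and 9 with it (Unc50 counted in both). Sema3c had 218, 201, 55.6 and 116 CPM in differentiating control and 6.77, 4.56 and 2.30 CPM in proliferating libraries (5.04 ± 0.61, adjusted p = 0.000181). Sema3e had 91.6, 75.9, 52.4 and 61.1 CPM in differentiating control and 3.78, 4.06 and 7.13 CPM in proliferating libraries (3.83 ± 0.31, adjusted p = 2.18e-05). Neither ligand overlapped between the groups.

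Sema3a fell in CG4 cells too, with 19.6, 16.6, 14.0 and 15.8 CPM in differentiating control and 86.6, 94.5 and 122 CPM in proliferating libraries (-2.59 ± 0.17, adjusted p = 6.06e-06). Nrp1 had 4.16, 4.87, 12.2 and 7.61 CPM in differentiating control and 0.0239, 0.999 and 1.14 CPM in proliferating libraries (3.35 ± 0.90, adjusted p = 0.0112). Replicate 1 held almost no Nrp1, and without it the log2 fold change was 2.77. Plxna2 had 7.86, 7.42, 7.58 and 7.99 CPM in differentiating control and 38.5, 276 and 164 CPM in proliferating libraries (-4.35 ± 0.56, adjusted p = 0.000252), where replicate 1 was again the lowest. Without that library the log2 fold change of Plxna2 was -4.82. Plxnc1, a receptor of Sema7a, averaged 4.58 ± 0.835 CPM in differentiating control and 26.6 ± 7.37 CPM in proliferating libraries and fell (-2.52 ± 0.24, adjusted p = 4.51e-05). Plxnd1, the receptor of Sema3e, averaged 118 ± 5.94 CPM in differentiating control and 18.0 ± 4.87 CPM in proliferating libraries and rose (2.73 ± 0.20, adjusted p = 1.35e-05).

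Slit2 rose, with 23.8, 23.7, 9.86 and 14.0 CPM in differentiating control and 0.167, 2.47 and 0.970 CPM in proliferating libraries (3.93 ± 0.78, adjusted p = 0.00253). Without proliferating replicate 1 the log2 fold change of Slit2 was 3.41. Its receptor Robo2 averaged 2.66 ± 1.79 CPM in differentiating control and 0.350 ± 0.199 CPM in proliferating libraries and rose (2.95 ± 0.69, adjusted p = 0.0058), while Robo1 fell (-0.79 ± 0.19, adjusted p = 0.00615). Among the ephrins, Efna4 averaged 5.50 ± 0.619 CPM in differentiating control and 0.530 ± 0.0927 CPM in proliferating libraries (3.39 ± 0.29, adjusted p = 2.83e-05). Efna5 had 1.47, 1.48, 1.94 and 1.45 CPM in differentiating control and 13.9, 9.02 and 11.1 CPM in proliferating libraries (-2.81 ± 0.25, adjusted p = 3.35e-05). These ligands of A-class receptors moved in opposite directions, and the groups did not overlap for either. Of the netrins, Ntn1 fell (-0.97 ± 0.15, adjusted p = 0.000593) and Ntn4 rose (1.55 ± 0.43, adjusted p = 0.0126), and none of the 3 Unc5 receptors passed with all libraries. Without proliferating replicate 1 all 3 Unc5 receptors passed. Unc5b had 32.1, 37.4, 47.7 and 34.2 CPM in differentiating control and 102, 20.1 and 28.3 CPM in proliferating libraries, so its direction depends on replicate 1. The 4 astrocyte markers with values summed to 286 to 2207 CPM in differentiating control and 3.12 to 37.6 CPM in proliferating CG4 libraries, of which Gfap made 234 to 2173 CPM in control and at most 0.315 CPM in proliferating libraries. Of the 7 neuron markers 4 were higher and 2 lower, with sums of 409 to 769.6 CPM in differentiating control and 476 to 594 CPM in proliferating CG4 libraries. Of the 5 Schwann cell markers 3 were higher and 1 lower (131 to 149 CPM in control and 78.4 to 349 CPM in proliferating libraries), and both fibroblast and vessel markers tested were higher (sums of 15.1 to 25.8 CPM over 3 markers in control and 1.03 to 3.08 CPM in proliferating libraries). Their part in these results was not tested.

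The difference between the differentiation responses was tested directly as an interaction. Of 64 genes, 34 had a higher and 16 a lower response in CG4 than in primary cells, which is 78.1%, against 69.2% of all 13207 genes tested (33.8% higher and 35.4% lower). In 10 genes the responses were called in opposite directions. All 10 passed the interaction, but it uses the same libraries that picked them, so passing it adds no separate evidence. The share of all genes with opposite calls was not counted. For 3 of the 10 a call was fragile. The CG4 calls of Sema4a and Epha10 (adjusted p = 0.0359 and 0.0301) were each lost in 5 of 7 fits that left out 1 library. They were also lost with the replicate block (0.154 and 0.0657). The fit with the block left out control replicate 4 as well, and leaving out this library alone ended both calls. The primary call of Plxnd1 was lost with DESeq2 (0.0569), with the close pairs summed, and without proliferating replicate 3 or differentiating replicate 3 or 4 (up to 0.121). Sema3c, Sema4a, Plxna3, Plxnd1, Efna3, Efna4, Efnb1 and Robo2 rose in CG4 and fell in primary cells, and Sema6a and Epha10 fell in CG4 and rose in primary cells. Sema3c had 33.3, 36.6, 40.2 and 42.3 CPM in differentiating and 68.4, 77.9, 69.6 and 72.9 CPM in proliferating primary libraries, a fall, against the rise given above for CG4 cells (difference of responses 5.97 ± 0.56, adjusted p = 2.82e-07). Sema6a had 60.5, 57.0, 84.2 and 82.4 CPM in differentiating control and 122, 169.9 and 145 CPM in proliferating CG4 libraries, a fall (-1.02 ± 0.19, adjusted p = 0.00163), against its rise in primary cells (difference of responses -4.52 ± 0.23, adjusted p = 4.56e-10). Plxnd1 averaged 25.9 ± 2.23 CPM in differentiating and 30.4 ± 1.78 CPM in proliferating primary libraries, a small fall (-0.19 ± 0.07, adjusted p = 0.0213), with a difference of responses of 2.97 ± 0.20, adjusted p = 8.49e-09. Robo2 averaged 16.2 ± 2.18 CPM in differentiating and 25.0 ± 0.939 CPM in proliferating primary libraries (-0.58 ± 0.08), with a difference of responses of 3.59 ± 0.60, adjusted p = 9.11e-05. Both Unc5b and Unc5c, which rose in primary cells, had lower responses in CG4 (-2.63 ± 0.52, adjusted p = 0.000383 and -3.70 ± 0.35, adjusted p = 3.51e-07). Unc5b stood at 102 CPM in proliferating CG4 replicate 1, against 20.1 and 28.3 CPM in replicates 2 and 3. Of the 8 oligodendrocyte markers 6 had a lower and 1 a higher response in CG4. The part of such markers in these responses was not tested.

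**Figure D5:**
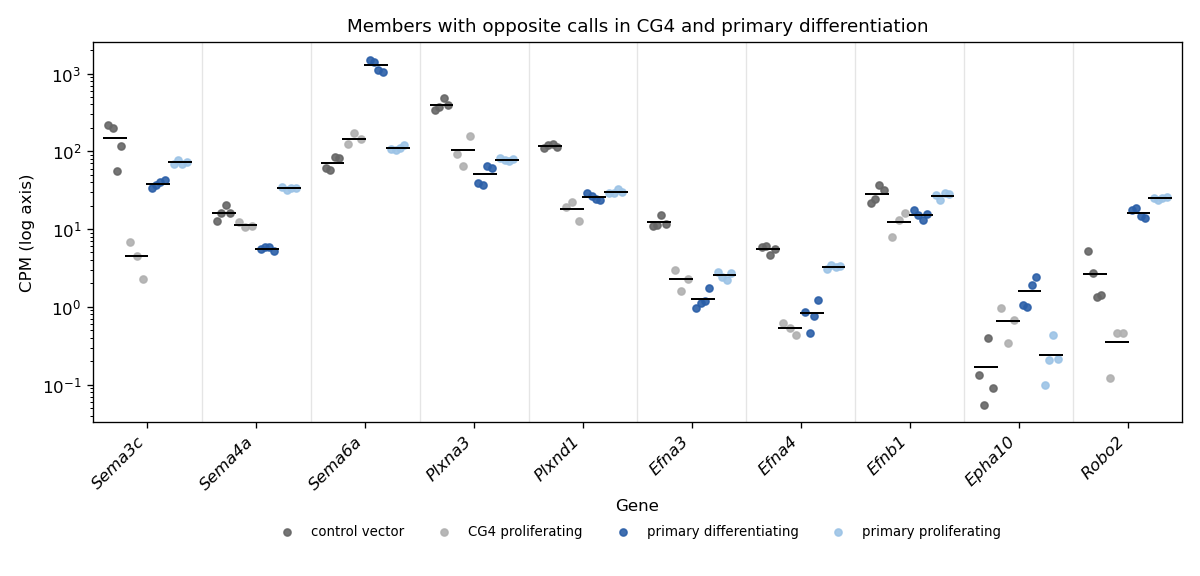
CPM in each library (log axis) of the 10 guidance genes whose differentiation responses were called in opposite directions, with points for differentiating control CG4, proliferating CG4, differentiating primary and proliferating primary libraries. Sema3c lies at 55.6 to 218 CPM in differentiating control CG4 and 2.30 to 6.77 CPM in proliferating CG4 libraries, but at 33.3 to 42.3 CPM in differentiating and 68.4 to 77.9 CPM in proliferating primary libraries.

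The end levels also differed between the cell sources. Of 64 genes, 27 were higher and 19 lower in differentiating control CG4 than in differentiating primary libraries, which is 71.9%, against 73% of all genes tested (36.8% higher and 36.2% lower). All 4 netrins were higher in CG4, among them Ntn1 (156 ± 17.6 CPM in CG4 and 102 ± 19.1 CPM in primary libraries, 0.60 ± 0.13, adjusted p = 0.000699) and Ntn3 (13.6 ± 4.34 CPM in CG4 and 1.53 ± 0.255 CPM in primary libraries, 3.15 ± 0.30, adjusted p = 2.25e-07). Ntn5 rests on few counts, at 0.587 ± 0.204 CPM in CG4 and 0.0982 ± 0.0893 CPM in primary libraries. Plxna3 averaged 396 ± 62.1 CPM in CG4 and 50.7 ± 14.1 CPM in primary libraries (2.97 ± 0.25, adjusted p = 7.17e-08). Sema6a was lower in CG4 (-4.16 ± 0.17, adjusted p = 6.57e-11), as were Sema6d (-3.96 ± 0.31, adjusted p = 3.86e-08), Ephb6 (-5.21 ± 0.40, adjusted p = 2.56e-08) and Sema4d (-1.91 ± 0.20, adjusted p = 7.47e-07). Plxnb3 averaged 1538 ± 222 CPM in differentiating control CG4 and 1512 ± 48.2 CPM in differentiating primary libraries, and this difference did not pass (0.02 ± 0.11, adjusted p = 0.852). In proliferating cells 17 were higher and 28 lower in CG4 than in primary libraries, which is 70.3%, against 71.2% of all genes tested (39.2% higher and 32% lower). Both neuropilins were lower in proliferating CG4 (-5.43 ± 0.59, adjusted p = 1.18e-06 for Nrp1 and -4.44 ± 0.56, adjusted p = 5.14e-06 for Nrp2), and Efna5 was higher, with 13.9, 9.02 and 11.1 CPM in CG4 and 0.268, 0.242, 0.131 and 0.240 CPM in primary libraries (5.61 ± 0.32, adjusted p = 9.42e-10). Over all genes the median log2 difference of this comparison was 0.10. Between proliferating CG4 and primary cells both microglia markers with values were lower (sums of 3.37 to 5.56 CPM in CG4 and 437 to 457 CPM in primary libraries), as were 5 of 7 neuron markers, with 1 higher (476 to 594 CPM in CG4 and 793 to 825 CPM in primary libraries). All 4 astrocyte markers (3.12 to 37.6 CPM in CG4 and 71.2 to 76.1 CPM in primary libraries) and 2 of 3 fibroblast and vessel markers (1.03 to 3.08 CPM in CG4 and 57.7 to 79.4 CPM in primary libraries) were lower too, and 3 of 5 Schwann cell markers were higher (78.4 to 349 CPM in CG4 and 34.1 to 38.2 CPM in primary libraries). Between the differentiating groups, 7 of 8 oligodendrocyte markers were lower in CG4 and none was higher (sums of 12184 to 19596 CPM in control CG4 and 93419 to 103599 CPM in primary libraries). Of the 4 progenitor markers tested 2 were lower and 1 was higher. Lower in CG4 were also 3 of 4 astrocyte, 1 of 2 microglia, 3 of 7 neuron, 1 of 5 Schwann cell and 1 of 3 fibroblast and vessel markers. Higher were 2 of 7 neuron, 2 of 5 Schwann cell and 1 of 3 fibroblast and vessel markers. The part of these cells in the guidance differences was not tested.

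Other genes of the guidance pathways, such as co-receptors, adaptors and regulators of the cytoskeleton, were taken from a list of 69 symbols, of which 65 had a name in the authors' tables. With Zfp488, 9 of 65 rose and 1 fell, which is 15.4% against the 9.05% of all genes tested, and with Nkx2.2, 8 rose and 8 fell, which is 24.6% against 10.5%. Nrcam, an adhesion molecule that associates with neuropilins, averaged 128.6 ± 40.4 CPM with Zfp488, 24.4 ± 4.49 CPM with Nkx2.2 and 55.7 ± 14.5 CPM in control (SD, n = 4 each). It was higher with Zfp488 (1.21 ± 0.25, adjusted p = 0.0129) and lower with Nkx2.2 (-1.19 ± 0.25, adjusted p = 0.00922). L1cam, a related adhesion molecule, rose with Nkx2.2 (1.92 ± 0.38, adjusted p = 0.00649), and Draxin, a secreted guidance cue that binds Dcc, fell (-1.17 ± 0.34, adjusted p = 0.0478). Fes, a tyrosine kinase downstream of plexins, rose with Zfp488 (2.54 ± 0.57, adjusted p = 0.019). In primary differentiation 27 of 62 rose and 29 fell, which is 90.3% against 84.7% of all genes, and Met, a receptor kinase that associates with plexins, was among those that fell (-4.33 ± 0.16, adjusted p = 2.26e-10). In CG4 differentiation 17 of 61 were higher and 23 lower, which is 65.6%, about the 65.7% of all genes, and Dcc, the netrin receptor, was among the lower (-3.30 ± 0.43, adjusted p = 0.000254).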

How the data were processed

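The authors deposited raw counts of reads by gene, with a separate file for each library. Per the submitters' processing notes the tools were Trimmomatic 0.36, STAR 2.5.2b and featureCounts (Subread 1.5.2) on the build rn6, with DESeq2 and edgeR for their own tests. No annotation release or strand setting is recorded there, so genes that overlap, lie antisense or have near copies are less certain. The authors' deposited tables for Zfp488 and Nkx2.2 hold log2 fold changes, p-values and a normalized signal, which by the values is the count divided by 1 size factor per library. Only the gene names of these tables were used, for 14690 identifiers.

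Testing used the quasi-likelihood method of edgeR (version 4.0.16, R 4.3.3) on the counts, with TMM scaling, filterByExpr and two-sided p-values adjusted by Benjamini-Hochberg over all genes tested, at a threshold of 0.05. Fits were made for the 12 differentiating CG4 libraries, for the 8 primary libraries, for the 7 libraries of control and proliferating CG4 cells, and for the primary, control and proliferating CG4 libraries together (15 in all), which gave the interaction and the levels between cell sources. CPM were scaled by TMM over 23 libraries on the 15219 genes listed in all files (Efnb2 on the 12 libraries that list it). Gene lengths were not used, so levels are compared within a gene. The guidance genes, the pathway list and the markers were chosen with earlier results of these data known, and no set test was run. Genes are given with values in every library by size: up to 8 higher and 8 lower per comparison, with a mean of at least 1 CPM in the higher group. The text gives a part of these, and adds partners of the same ligand and receptor families. A likeness ranking over libraries was left out because the libraries fall into separate groups.

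The titles call the replicates biological but name no cultures, so p-values measure the spread between these libraries. Deviations from the group means were correlated between libraries of equal replicate number. In differentiating CG4 cells r was 0.192 to 0.690 for Zfp488 with control, 0.143 to 0.554 for Nkx2.2 with control and 0.264 to 0.559 for Zfp488 with Nkx2.2, so the numbers pair these libraries and the replicate block is given there. No replicate pair agreed within sampling noise (chi-square per degree of freedom 1.77 or more). Each result was recomputed with RLE scaling, without the low-count filter, with DESeq2 1.42.0, with the replicate block, with other libraries or library sizes in the fit, with the close primary pairs summed, and without each library in turn. The procedure was also run on simulated counts in which all libraries varied independently. That simulation cannot show how the tests behave where libraries of equal replicate number deviate together.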

Additional observations from a re-analysis of the deposited data

Results flagged for a closer look

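Among 61 groups of 4 libraries examined for the genes named with values, 2 held a library far from the other 3, a gap over 0.829 of the range, which chance gives in about 1 of 20 groups. Epha3 stood at 2.75 CPM in control replicate 4, above 2.06, 2.14 and 2.06 CPM in the other control libraries (gap of 0.884 of the range). Sema3f stood at 0.580 CPM in Zfp488 replicate 1, below the other Zfp488 libraries (gap of 0.889 of the range).

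In 10 guidance genes the differentiation responses of CG4 and of primary cells were called in opposite directions, and the difference passed the interaction test of edgeR in each. The genes were picked by those calls from the same libraries, so the interaction test is no separate evidence for them. The response of CG4 minus that of primary cells, on the log2 scale, was 5.97 for Sema3c, 5.39 for Efna4, 3.59 for Robo2, 3.47 for Efna3, 3.13 for Sema4a, 2.97 for Plxnd1, 2.57 for Plxna3 and 2.05 for Efnb1. It was -4.52 for Sema6a and -4.69 for Epha10. Epha10 was under 1 CPM in both CG4 groups, and the read length and the vector differ between the CG4 groups but not between the primary groups.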

How the results depend on the processing

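The direction of every guidance gene called here was kept under each alternative fit, except for Sema3g between proliferating CG4 and primary cells. Its log2 difference was 1.47 with all libraries, -0.08 without proliferating CG4 replicate 1 and 1.91 without replicate 2, so the call rests on replicate 1, where Sema3g stood at 14.0 CPM. The replicate block, which pairs libraries by number, raised the calls over all genes to 3564 for Zfp488, 3864 for Nkx2.2 and 6271 between the factors, against 1340, 1560 and 3732 without it, and the guidance genes called to 23, 30 and 37, against 7, 18 and 24. For the primary cells and CG4 differentiation the numbers did not pair the libraries (correlations of -0.044 to 0.103 and of -0.130 to 0.045). In primary cells 52 guidance genes were called with and without the block. In CG4 cells 32 were called with it, against 35 in the main fit. That CG4 fit also left out control replicate 4, and leaving out this library alone lost the same genes (Epha10, Ephb2, Sema3b and Sema4a). DESeq2 called 2144 genes for Zfp488. Leaving out 1 library gave 454 to 1514 genes and 3 to 8 guidance genes for Zfp488, 912 to 2295 genes and 11 to 23 guidance genes for Nkx2.2, and 2572 to 4619 genes and 19 to 24 guidance genes between the factors; the cause of these changes was not tested. The other counts of calls stayed within 1.5 times under the alternatives run. Genes under about 1 CPM, among them Plxna4, Sema3f and Sema4f in control libraries, rest on few counts. The tests see only the spread between libraries, and the CG4 differentiation contrast cannot separate condition, vector and read length.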
